A study of Schizosaccharomyces pombe with 12 samples.

Results

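Pyrimidine nucleotides reach a fission yeast cell by 2 routes, synthesis from small precursors and uptake of ready-made uracil. Followed here are 6 genes of these routes in *Schizosaccharomyces pombe*, namely *ura1*, *ura2*, *ura3*, *ura4* and *ura5* for synthesis and *fur4* for uptake. They were chosen by gene name among the 6988 features of the deposited tables, and each name matched 1 feature. The libraries, 12 in all, hold poly(A)+ RNA from the haploid *h-* strain AGP72, which the labels call WT. The 0 h group was harvested in log phase from YES, which is made with yeast extract and supplements. The 3 other groups were taken 2, 4 and 8 h after the cells were moved to ePMGT(+PO4), a defined glutamate medium with phosphate and thiamine. Each group has 3 libraries, described in the paper as biological replicates. By the paper's recipe ePMGT also contains uracil, adenine, histidine, lysine, leucine and a mixture of amino acids. How much uracil YES held is not stated in the labels or the paper. No culture was kept in YES to 2, 4 or 8 h, so the new medium, the handling of the cells and time in culture cannot be told apart.

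The paper states that all its strains carry *leu1-32*, *ura4-D18*, *his3-D1* and a mutant *ade6* allele, although AGP72 has no line of its own in its strain list and the label gives the genotype as *h-* alone. The alleles *ura4-D18* and *his3-D1* are deletions. All 4 groups are of the same strain, so any of these alleles that AGP72 carries is shared by them, but whether it carries each was not tested.

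In synthesis, the Ura1 protein joins glutamine, bicarbonate and aspartate into carbamoyl aspartate, Ura2 closes the ring to dihydroorotate, and Ura3, a mitochondrial enzyme, oxidizes it to orotate. Ura5 then attaches ribose phosphate, and Ura4 removes a carboxyl group to leave UMP, from which the other pyrimidine nucleotides are made. In the budding yeast *Saccharomyces cerevisiae*, UTP inhibits the enzyme that begins this route. A cell without Ura4 cannot finish it and depends on uracil taken up by a transporter such as Fur4 and turned into UMP by a uracil phosphoribosyltransferase.

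All values are the authors' group averages of normalized reads, 1 for each gene and time. These averages carry no spread between libraries, so no test was made from them, no error is given beside a value, and the number of libraries that show a direction is not known. The tables also hold the authors' own fold changes with standard errors and p-values, which were set aside by choice and not used here. The averages of all features summed to 16948069, 16787779, 17640966 and 17017175 in time order, and the depth of each library is not in the tables. A ratio below is that of a later average to the 0 h average, and its log2 value has 1 added to both averages. To give a ratio a scale, it is set among all features that averaged 100 or more in the higher of both groups. In that set the middle 90% of log2 ratios ran from -0.29 to 0.47 at 2 h (5373 features), from -0.36 to 0.46 at 4 h (5358) and from -0.50 to 0.59 at 8 h (5378). That range holds true change and measurement error together. All 3 ratios of a gene use the same 0 h libraries and so are not independent of each other.

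None of the 5 genes with reads reached a 2-fold difference from 0 h at any time. The other member, *ura4*, was at 0 in every group and has no ratio. Of all features averaging 100 or more, 1.66% were at least 2-fold higher and 0.13% at least 2-fold lower at 2 h. At 4 h these shares were 1.68% and 0.224%, and at 8 h 2.47% and 0.781%. With 1.5-fold in place of 2-fold, 1 of the 5 genes passed, *ura3* on the lower side at 8 h. There 3.53% of features passed on that side and 5.09% on the higher. No member passed 1.5-fold at 2 h (3.46% of features higher and 0.893% lower) or at 4 h (3.64% and 1.33%). Smaller differences leaned one way, however. The ratio was below 1 for 4 of the 5 genes with reads at 2 h, for all 5 at 4 h and for all 5 at 8 h. Their median log2 ratio was -0.23, -0.27 and -0.44 at 2, 4 and 8 h, against a median over all features of -0.0015, -0.0048 and 0.023.

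**Figure D1:**
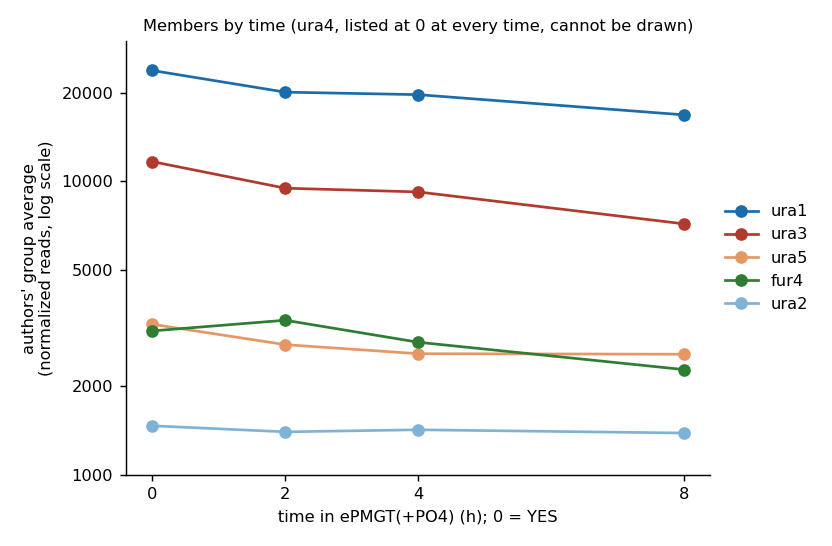
The authors' group averages (normalized reads, log scale) of the 5 members with reads, against time, where 0 h is YES and later times are ePMGT(+PO4); each point is 1 average with no error known. The lines of *ura1*, *ura3* and *ura5* run downward from 0 to 8 h, *fur4* is highest at 2 h, and *ura2* stays between 1388 and 1469.

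The gene *ura4*, for orotidine 5'-phosphate decarboxylase, was listed at 0 in all 4 groups. No fold can be given for it. A listed 0 alone does not show a deletion, because 324 features were at 0 in every group, among them the mitochondrially encoded *cox1* and the spindle gene *mzt1*. The RefSeq annotation of *S. pombe* (assembly ASM294v3) shows no other gene that overlaps *ura4*. Of its 6 closest coding neighbours on chromosome III, all had reads in every group. The nearest on one side, the ER stress gene *tam14*, averaged 515, 583, 538 and 534 at 0, 2, 4 and 8 h. On the other side *new25*, a gene specific to *Schizosaccharomyces*, averaged 27.2, 27.8, 22.0 and 22.1, and beyond it the chaperone gene *pmp20* averaged 6742, 5453, 7376 and 6588. The listed 0 thus concerned *ura4* and not the genes on either side of it.

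Of the other genes with alleles named in the paper, *his3*, for histidinol-phosphate aminotransferase, had reads in every group, with averages of 281, 212, 163 and 201, values that do not match a complete deletion of that gene. The source of these reads was not tested. The leucine synthesis gene *leu1* averaged 9088, 7628, 7471 and 6675, and the purine synthesis gene *ade6* 3611, 3382, 3257 and 2937. So 1 of these 4 genes was at 0 throughout.

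The gene *ura1* had the most reads of the 6. Its product carries the glutamine-hydrolysing carbamoyl phosphate synthase and the aspartate carbamoyltransferase in 1 chain. The averages were 23873 in YES, then 20140, 19751 and 16856 after 2, 4 and 8 h in ePMGT. At 2 h it stood at 84.4% of its 0 h level, and 2 h later it was little different (82.7%). By 8 h it was at 70.6%, a log2 ratio of -0.50. A lower ratio was found for 5.06% of features at that time, compared with 7.69% at 2 h and 8.81% at 4 h.

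The gene for the next step lay close to its 0 h level throughout. This dihydroorotase gene, *ura2*, averaged 1469 at 0 h and 1401, 1424 and 1388 at the later times, so no later value was under 94.5% of the 0 h level. Its log2 ratios of -0.07, -0.05 and -0.08 were in the middle of the distribution, with 34.2%, 40.8% and 34.2% of features lower. It was the least abundant of the 5 genes by reads.

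The lowest ratio among the members belonged to *ura3*, whose product, dihydroorotate dehydrogenase, passes electrons from dihydroorotate to the respiratory chain. Its averages were 11676, 9480, 9206 and 7165 at 0, 2, 4 and 8 h. These were 81.2%, 78.8% and 61.4% of the 0 h level. At 8 h it was 1.63-fold lower than at 0 h (log2 ratio -0.70), and 2.25% of features lay lower still. As with *ura1*, the averages at 2 and 4 h were close (log2 ratio -0.04, with 35.9% of features lower), and those at 4 and 8 h were further apart (-0.36, 3.05% lower). RefSeq annotates a noncoding RNA on the opposite strand over 1428 bases of *ura3*, and shorter ones over 226 and 188 bases of *ura1*, 436 of *ura5* and 496 of *fur4*. These RNAs are not listed in the tables, and their part in the values was not tested.

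The orotate phosphoribosyltransferase gene *ura5* took another course in time. Its averages were 3258 in YES, and 2776, 2587 and 2576 in ePMGT. It was at 85.2%, 79.4% and 79.1% of 0 h, so the whole of its difference was present at 4 h, and the log2 ratio of 8 h to 4 h was -0.01. In the distribution of all features it lay lowest at 4 h (5.9% of features lower) and was less extreme at 8 h (10.9%).

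Summed over *ura1*, *ura2*, *ura3* and *ura5*, the averages were 40276 at 0 h and 33797, 32968 and 27984 at 2, 4 and 8 h. The sum, of which *ura1* and *ura3* make up most, was thus at 83.9%, 81.9% and 69.5% of the 0 h value. These genes took 0.238% of all normalized reads at 0 h and 0.164% at 8 h. The averages of *ura1*, *ura3* and *ura5* were lower at each successive time, a pattern seen in 11.9% of the 5405 features that averaged 100 or more at any time. For *ura5* the last step was smaller than the shift made by another scaling of the libraries.

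**Figure D2:**
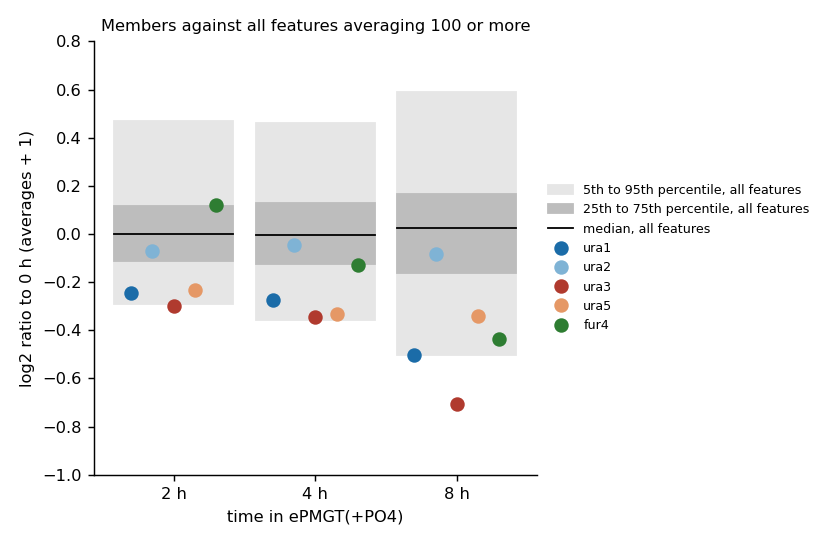
The log2 ratio to 0 h of the 5 members with reads (points) at 2, 4 and 8 h, over the 5th to 95th (light) and 25th to 75th percentile (dark) and the median (line) of all features averaging 100 or more. At 8 h *ura3* (-0.70) lies below the light band and *ura1* (-0.50) just within its lower edge, while *ura2* (-0.08) stays in the dark band.

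The uptake gene *fur4* was the member whose average at 2 h was above that at 0 h. It averaged 3093 in YES, and in ePMGT 3363, 2830 and 2284. It stood at 109% of its 0 h level at 2 h, 91.5% at 4 h and 73.8% at 8 h, with log2 ratios of 0.12, -0.13 and -0.44. At 8 h it was at 67.9% of its 2 h level, a lower share than that of *ura3* (75.6%), *ura1* (83.7%), *ura5* (92.8%) or *ura2* (99.1%). Both steps were low in the distribution of all features, with 5.99% lower from 2 to 4 h and 4.46% lower from 4 to 8 h. At 8 h 7.03% of features had a lower ratio to 0 h.

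Levels of different genes were compared as averages per kilobase of coding sequence, with lengths from the RefSeq annotation. On this scale *ura3* was the most abundant at 0 h (8766), followed by *ura5* (5028), *ura1* (3545), *fur4* (1772) and *ura2* (1449). The gap between *ura3* and *ura2* was 6.05-fold. At 8 h the values were 5379 for *ura3*, 3975 for *ura5*, 2503 for *ura1*, 1369 for *ura2* and 1308 for *fur4*. The range had narrowed to 4.11-fold, and *ura2* and *fur4* had changed places, although they were only 1.05-fold apart at 8 h and kept their 0 h places per kilobase of exon. The order of *ura5* and *ura1* depends on the length used. The transcript of *ura5* has 1316 bases of exon for 648 coding bases, and per kilobase of exon *ura1* (3436) was above *ura5* (2476) at 0 h. *ura3* led and *ura4* was at 0 on either length.

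The 6 genes do not lie together. By the RefSeq annotation, *ura1*, *ura2*, *ura3* and *fur4* are on chromosome I, *ura5* on II and *ura4* on III. Of the 30 closest coding neighbours of the *ura* genes, 6 for each, none was past 2-fold at any time. This is near the share over all features at 8 h, of which 2.47% were past it higher and 0.781% lower. The share at any time was not computed. At 8 h *sla1*, a neighbour of *ura3*, was 1.58-fold lower than at 0 h, and *SPCC330.03c*, a neighbour of *ura4*, 1.62-fold lower. Both were thus past 1.5-fold, as *ura3* was, where 3.53% of all features were past it lower. The log2 ratios of the neighbours of the *ura* genes ran from -0.31 to 0.53 at 2 h, from -0.47 to 0.56 at 4 h and from -0.70 to 0.42 at 8 h.

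In contrast, 4 of the 6 closest coding neighbours of *fur4* passed 2-fold at some time, all on the higher side. Of all features, 1.66%, 1.68% and 2.47% were past 2-fold higher at 2, 4 and 8 h. The share of all features past it at any of these times was not computed. On one side lie *uck2*, for a uracil phosphoribosyltransferase, *toe1*, for a transcription factor of the zinc binuclear cluster type, and *urg1*, for a GTP cyclohydrolase II. These 3 genes are transcribed from the strand opposite to *fur4*. The adjacent *uck2* averaged 457 at 0 h and 5742, 3188 and 3799 at 2, 4 and 8 h, which is 12.6, 6.98 and 8.31 times its 0 h level. Over the same times *fur4* was at 1.09, 0.915 and 0.738 times its own. *toe1* had log2 ratios of 1.26, 1.11 and 1.27, and *urg1* of 5.53, 4.59 and 5.07.

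On the other side the pattern was weaker. The transporter gene *SPAC1399.02* and the dubious reading frame *SPAC1399.06*, both on the strand of *fur4*, had log2 ratios at 2 h of 0.34 and 0.59. Next to them, *SPAC1399.01c*, annotated as a nucleobase transporter, averaged 690 at 0 h and 1416, 1081 and 1214 later. It was past 2-fold at 2 h (log2 ratio 1.04) and not at 4 h (0.65) or 8 h (0.81). Among these 7 genes in a row, *fur4* was the only one whose average was below its 0 h value at 4 and 8 h.

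**Figure D3:**
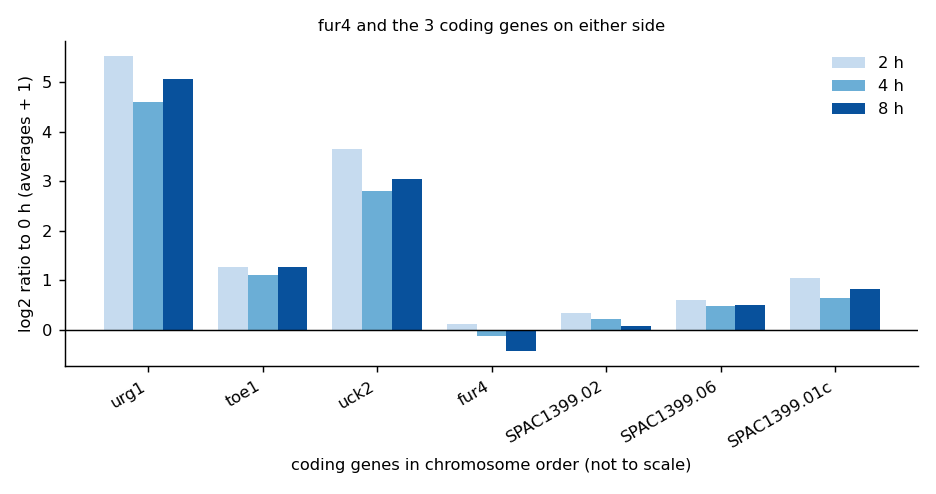
The log2 ratio to 0 h at 2, 4 and 8 h (light to dark bars) of *fur4* and the 3 coding genes on either side, in chromosome order and not to scale. The bars of *fur4* (0.12, -0.13 and -0.44) stand beside those of *uck2* (3.65, 2.80 and 3.05), and all other bars are above 0.

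Several genes for reuse of uracil and uridine were far above their 0 h level. A list of 17 features for uptake and salvage was chosen by symbol and by words in the product names. Earlier results of these data were known when it was drawn up, so its counts are not independent evidence. Of the 17, 16 averaged 100 or more. At 2, 4 and 8 h, 5, 4 and 4 of these were past 2-fold higher, where 1.66%, 1.68% and 2.47% of all features were. None was past 2-fold lower, which is near the share over all features (0.13%, 0.224% and 0.781%). The median log2 ratio of the list was 0.23, 0.16 and 0.16, against -0.0015, -0.0048 and 0.023 for all features. The list took in *mpn1*, *cmb1*, *rib7* and *hut1* through words in their product names, although these act in RNA trimming, mismatch binding, riboflavin synthesis and sugar nucleotide transport. It also took in *dut1*, for the enzyme that hydrolyses dUTP, which is counted again below among the genes downstream of UMP. *uck2*, counted in this list, is also among the neighbours of *fur4* counted above. The systematic names of *urg2* (SPAC1002.17c) and *urg3* (SPAC1002.18) are consecutive with that of *urg1* (SPAC1002.19), another such neighbour. The counts for this list and for the neighbours of *fur4* thus overlap and are not separate results.

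The largest ratios in that list were those of *urg2*, for a uracil phosphoribosyltransferase, which makes UMP from uracil directly. It averaged 1428 at 0 h and 40135, 19298 and 25998 at 2, 4 and 8 h. At 2 h the next after *uck2* was *urh1*, for a uridine ribohydrolase that frees uracil from uridine, with 519 at 0 h and 3939, 2166 and 2105 later. *urg3*, whose product is implicated in uracil or riboflavin metabolism, had log2 ratios of 2.80, 2.01 and 2.32. The cytidine deaminase gene *cdd1* was past 2-fold at 2 h alone (log2 ratios 1.59, 0.79 and 0.92). Each of *urg2*, *uck2*, *urg3*, *urh1* and *cdd1* had its highest average at 2 h, the time at which *fur4* too was highest.

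Other salvage genes lay nearer to their 0 h level or below it. The third uracil phosphoribosyltransferase gene, *SPAC1B3.01c*, averaged 3155, 3731, 3529 and 3247, within 1.18 times its 0 h level. The uridine kinase gene *urk1*, whose product also carries that activity in the annotation, had log2 ratios of 0.53, 0.29 and 0.17. The gene *SPBC1683.05*, annotated as a plasma membrane transporter for uracil and uridine, averaged 3443, 4329, 3842 and 3666. Like *fur4* it had its highest average at 2 h, but at 8 h it was still above its 0 h level (log2 ratio 0.09). The cytosine deaminase gene *SPCC965.14c* went the other way, with averages of 509, 400, 352 and 319 and a log2 ratio of -0.67 at 8 h.

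Uracil phosphoribosyltransferases and Ura5 catalyse like reactions, on uracil and on orotate, so the levels of their genes were set side by side. Per kilobase of coding sequence, *urg2*, *uck2* and *SPAC1B3.01c* together stood at 7975 at 0 h, 1.59 times *ura5*. This sum leaves out *urk1*, which stood at 1137, 1644, 1391 and 1275 on that scale at 0, 2, 4 and 8 h. At 2 h the sum was 84726, or 19.8 times *ura5*, and at 8 h it was 56260, or 14.2 times. Per kilobase of exon these multiples became 1.54, 24.2, 13.3 and 17.2 at 0, 2, 4 and 8 h. At 0 h *SPAC1B3.01c* led this sum and *urg2* made up 31.4% of it. At 2 h *urg2* made up 83.1%, at 4 h 76.9% and at 8 h 81.1%.

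**Figure D4:**
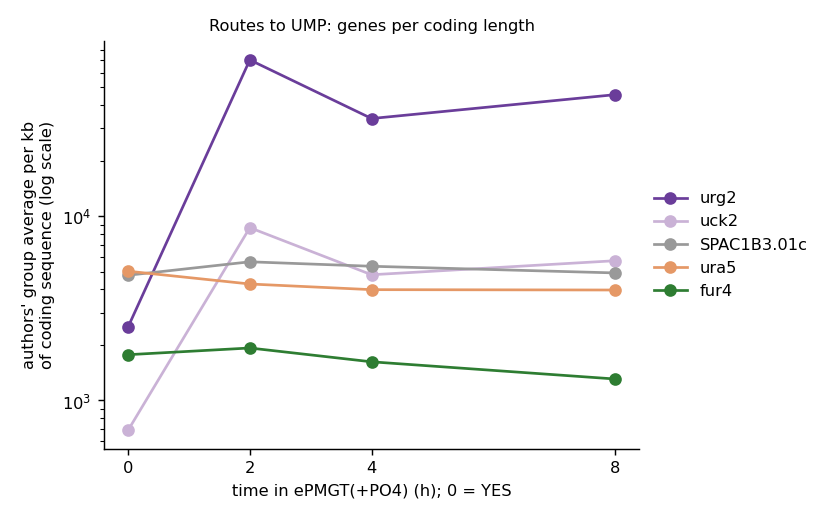
Levels per kilobase of coding sequence (authors' group averages, log scale) against time for 3 uracil phosphoribosyltransferase genes, *ura5* and *fur4*; each point is 1 average with no error known. *urg2* goes from 2506 at 0 h to 70413 at 2 h, whereas *ura5* (5028 to 3975 from 0 to 8 h) and *fur4* (1772 to 1308) end lower than they began.

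Downstream of UMP, 10 features were listed, for nucleotide kinases, CTP synthase, ribonucleotide reductase and the steps to thymidylate. None was past 1.5-fold at any time. That is near the share over all features, of which 5.09% were past it higher and 3.53% lower at 8 h. The median log2 ratio of the 10 was 0.11, 0.07 and 0.10, against -0.0015, -0.0048 and 0.023 for all features. The CTP synthase gene *cts1* was below its 0 h level at each time, with averages of 13143, 10946, 10957 and 9496 (log2 ratios -0.26, -0.26 and -0.47). At 8 h 5.99% of features had a lower ratio than *cts1*. The UMP kinase gene *ura6* averaged 4530, 4892, 4225 and 3729, and like *fur4* it was above its 0 h level at 2 h and below it at 8 h. The ribonucleotide reductase inhibitor gene *spd1* had the largest ratios upward, 0.49, 0.46 and 0.35, and the thymidylate kinase gene *tmp1* stood at 0.11, 0.06 and 0.21.

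Carbamoyl phosphate is also made for arginine, by a separate enzyme. Its subunit genes *arg4* and *arg5* and the ornithine carbamoyltransferase gene *arg3* were not below their 0 h levels at 2 h (log2 ratios 0.19, 0.09 and 0.01). At 8 h they were at -0.47, -0.57 and -0.58, beside -0.50 for *ura1*. For *arg3* the averages were 2237, 2252, 1707 and 1499. None of these 3 genes was past 1.5-fold, but *arg3* (1.49-fold lower) and *arg5* (1.48-fold lower) came close to it at 8 h. At that time 3.53% of all features were past it lower. As with *fur4*, and unlike *ura1*, the averages of *arg4* and *arg5* at 2 h were above those at 0 h, while that of *arg3* was almost level.

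**Figure D5:**
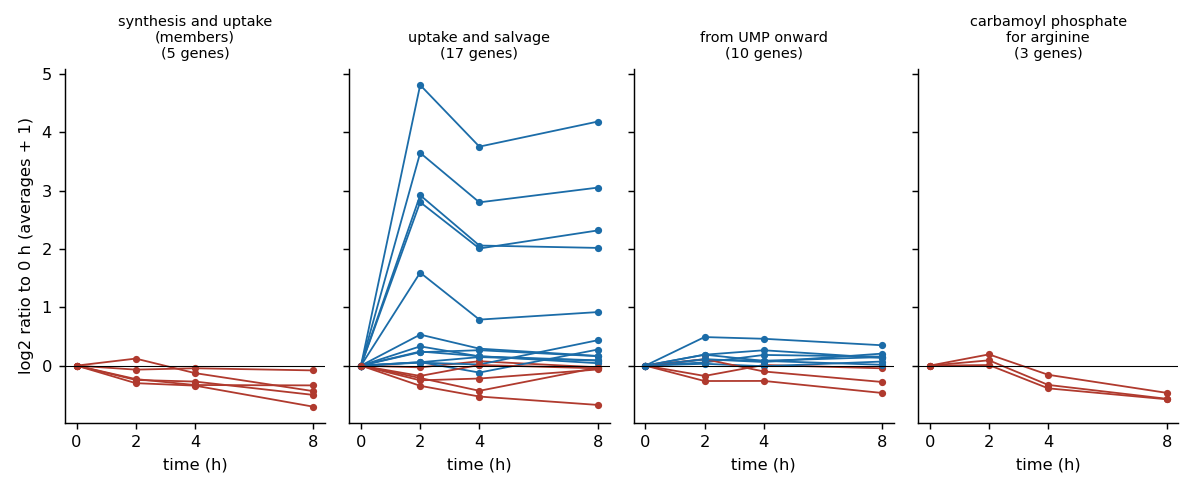
The log2 ratio to 0 h against time (h) for the 5 members with reads, 17 features for uptake and salvage, 10 from UMP onward and 3 for carbamoyl phosphate in arginine synthesis; red lines end below 0 at 8 h and blue lines above. All 5 member lines end between -0.70 and -0.08, while the highest salvage line, *urg2*, is at 4.81, 3.76 and 4.19.

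For *ura3*, the only member past 1.5-fold, the coding genes of most similar course were looked up among 4804 by the distance between their 3 log2 ratios. The closest was *rrs1*, a ribosome biogenesis gene, at a distance of 0.042, with averages of 1963, 1604, 1508 and 1219. Next were *ani1*, for a factor acting on the centromeric histone CENP-A, at 0.059, and *sda1*, a gene of the SDA1 family, at 0.085. Likeness over 3 ratios that share their 0 h libraries is a description of these averages alone.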

How the data were processed

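Poly(A)+ RNA of 12 libraries was sequenced as read pairs with a stranded kit. The authors aligned reads with HISAT2 2.1.0 and counted them on exons of ASM294v2 with HTSeq 0.10.0; no source here names the strand setting. The deposited tables, 3 in number, give the authors' group averages as signal (counts divided by DESeq2 size factors), with identical 0 h averages. Their 6 other value columns, an overall mean and the authors' fold changes, standard errors, statistics and p-values, were not used.

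Ratios were computed with Python 3.11.15, pandas 2.3.3 and numpy 2.4.6 (pseudocount 1, minimum average 100) and the calculation was checked on simulated data. Other scalings, pseudocounts, minimum averages, folds and lengths were tried. Lengths, gene order and overlaps came from RefSeq (ASM294v3), which matched 6836 of 6988 features. Because the builds differ, no positions are printed and a planned motif search in promoters was not run.

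Members and lists were chosen with earlier results of these data known. The naming rule took all members, genes with alleles named in the paper, the 4 features per list with the largest log2 ratio at 8 h in either direction, coding neighbours of *fur4* and *ura4*, and the 3 coding genes closest to a member past 1.5-fold. Named after their values were seen were *cdd1*, *urk1*, *SPAC1B3.01c*, *SPBC1683.05*, *SPCC965.14c*, *mpn1*, *cmb1*, *rib7*, *hut1*, *dut1*, *cox1* and *mzt1*.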

Additional observations from a re-analysis of the deposited data

How the results depend on the processing

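No paired analysis was possible because the tables hold 1 average for each group and no values per library, and for the same reason no library could be left out. The 25 member ratios, 15 to 0 h and 10 between later times, were recomputed with averages scaled to the group total and with a pseudocount of 10, and those to 0 h also centred on the median feature and without a pseudocount. All 80 values stayed under 2-fold, and no log2 ratio spread by more than 0.072 over the settings. The sign changed under scaling to the total for 3 small ones, *ura2* at 4 h to 2 h (0.02 to -0.05), *ura2* at 8 h to 4 h (-0.04 to 0.02) and *ura5* at 8 h to 4 h (-0.01 to 0.05). No scaling moved the median of all features from 0 by more than 0.071. With 1.5-fold, members past the fold went from 0 to 1 lower at 8 h (*ura3*), and the features past it became 186 up and 48 down (89 and 7 with 2-fold) at 2 h, 195 and 71 (90 and 12) by 4 h, then 274 and 190 (133 and 42) by 8 h. With a minimum average of 10, the features past 2-fold down numbered 22, 33 and 100 in time order, and 136 were past it up at 4 h. With no minimum the counts were 180 and 48, 190 and 64, and 229 and 131. These alternatives moved no other member count. Without division by length, the order of levels was *ura1* (1), *ura3* (2), *ura5* (3), *fur4* (4) and *ura2* (5) by reads at 8 h, and *ura1* 1, *ura3* 2 and *ura5* 3 at 0 h. With exon length, an alternative chosen after seeing the data, *ura1* ranked 2 and *ura5* 3 at 0 h and at 8 h, with *fur4* 4 and *ura2* 5 at 8 h. Depth per library is unknown, so counting error cannot be given.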
